A study of Mus musculus with 10 samples.

Results

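Perineuronal net genes were followed in the hippocampus of mice given a photodynamic treatment meant to ablate their meningeal lymphatic vessels. The 9 genes are the lecticans Acan, Bcan, Ncan and Vcan, the link protein genes Hapln1, Hapln2 and Hapln4, and the tenascins Tnr and Tnc, chosen by family among 28871 genes in the table. All 9 were found and all 9 passed the filter on low counts. The 5 Visudyne samples (3, 6, 9, 12 and 15) came from wild-type C57BL/6J males, 2 months old, that received the photosensitizer Visudyne (verteporfin) in the cisterna magna. Red light of 689 nm was then shone on the intact skull. The 5 vehicle samples (1, 4, 7, 10 and 13) came from mice of the same strain, sex, age and genotype that received vehicle as the control for this procedure. The procedure was given again after 2 weeks and the whole hippocampus was taken 2 weeks later. The labels do not say whether each sample is a single animal, so that p-values measure the spread between samples.

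Perineuronal nets are mesh-like coats of extracellular matrix around the cell bodies and dendrites of certain neurons. In the hippocampus they surround mainly parvalbumin interneurons and the pyramidal cells of field CA2. Hyaluronan chains form the backbone, lecticans bind to it with one end, link proteins hold that contact, and tenascin-R ties the other ends of lecticans together. The same genes also serve the looser matrix between cells and the matrix at the nodes of Ranvier, so their RNA is no measure of nets alone.

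The promoters of 3 of the 4 lectican genes are shown. These genes carry the only relation between members that passed adjustment, and the one closest to passing. The sequences are from RefSeq (GRCm38.p6), which held a promoter for 8 of the 9 genes. Each runs 5' to 3' over 300 bases on the gene's strand around a start that RefSeq annotates, which for Bcan lies upstream of the GENCODE start given below. CG dinucleotides are in capitals. Ncan lies at chr8:70120795-70121094 on the minus strand, Vcan at chr13:89742463-89742762 on the minus strand and Bcan at chr3:88000307-88000606 on the minus strand.
Ncan: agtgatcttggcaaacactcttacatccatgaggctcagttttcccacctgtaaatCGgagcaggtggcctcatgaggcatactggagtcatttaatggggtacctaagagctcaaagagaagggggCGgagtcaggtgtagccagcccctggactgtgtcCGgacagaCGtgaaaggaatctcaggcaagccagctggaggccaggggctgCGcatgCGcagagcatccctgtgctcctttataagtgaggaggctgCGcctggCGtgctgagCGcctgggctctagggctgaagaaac
Vcan: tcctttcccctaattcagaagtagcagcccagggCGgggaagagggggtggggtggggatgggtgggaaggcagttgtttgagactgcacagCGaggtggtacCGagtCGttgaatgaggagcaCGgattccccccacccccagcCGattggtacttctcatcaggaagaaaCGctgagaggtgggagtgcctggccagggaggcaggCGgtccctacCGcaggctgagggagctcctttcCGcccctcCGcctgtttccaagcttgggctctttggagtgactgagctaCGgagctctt
Bcan: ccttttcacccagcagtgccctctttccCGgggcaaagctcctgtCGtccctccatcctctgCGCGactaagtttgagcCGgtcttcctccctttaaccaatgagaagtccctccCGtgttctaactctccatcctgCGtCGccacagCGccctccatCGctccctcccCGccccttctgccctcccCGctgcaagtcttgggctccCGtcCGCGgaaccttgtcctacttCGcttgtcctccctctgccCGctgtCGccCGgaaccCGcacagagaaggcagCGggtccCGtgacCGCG
The Ncan sequence held 9 CG dinucleotides, the Vcan sequence 12 and the Bcan sequence 24, against a median of 7 over 32851 promoters of the same length. The letters TATAAA, searched on both strands, occurred once in Ncan (read on the opposite strand) and in neither Vcan nor Bcan. They occurred in 13.6% of all promoters. These matches describe the letters of the windows only.

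In GENCODE M21 (mm10) each of the 3 link protein genes neighbours a lectican gene with no protein-coding gene between them. Hapln4 (plus strand, positions 70083457 to 70090862 of chromosome 8) ends 2222 bases from the end of Ncan (minus strand, 70093085 to 70120873). Hapln1 (plus strand, 89539796 to 89611652 of chromosome 13) lies 43659 bases from Vcan (minus strand, 89655312 to 89742509). Hapln2 (88021750 to 88027583 of chromosome 3) and Bcan (87987531 to 88000230) are both on the minus strand and 21519 bases apart. Acan (plus strand, 79053483 to 79115099 of chromosome 7) has the link protein gene Hapln3 as its neighbour, which had 8 estimated counts in vehicle sample 4 and 0 in the other 9 samples. Tnr lies on chromosome 1 (plus strand, 159523769 to 159931729) and Tnc on chromosome 4 (minus strand, 63959785 to 64047015). No exon of another gene on the same strand overlaps the 9 genes. The antisense genes Gm38039 and 8030451A03Rik overlap exons of Tnr and of Tnc, and whether the counting used strand is not given in the sources used here.

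Levels were set side by side as CPM (a gene's count relative to its library's scaled total) per kilobase of annotated exon, over all 10 samples. Ncan (neurocan) had the highest level with 30.0 ± 1.29 CPM per kb, and Bcan (brevican) had 29.4 ± 1.88 CPM per kb (SD, n = 10). Their ranges overlapped and Ncan was above Bcan in 5 of 10 samples, so the order of these lecticans was not settled. Hapln4, whose product joins brevican in the nets, followed at 14.4 ± 0.775 CPM per kb, below Bcan and above Hapln2 in every sample.

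Hapln2, the link protein of the nodes of Ranvier, had 4.77 ± 0.656 CPM per kb, and Hapln1, the link protein that condenses nets, had 3.82 ± 0.316 CPM per kb. These overlapped, with Hapln2 higher in 9 of 10 samples. Tnr (tenascin-R) had 2.36 ± 0.276 CPM per kb and Vcan (versican) 1.71 ± 0.206 CPM per kb, again overlapping, with Tnr higher in 9 of 10 samples. Tnc (tenascin-C) had 1.03 ± 0.166 CPM per kb and Acan (aggrecan, the lectican most used to mark nets) 0.934 ± 0.105 CPM per kb, with Tnc higher in 6 of 10 samples. The highest level was 32.1 times the lowest. With the longest coding transcript as length, Bcan stood above Ncan (38.0 against 30.0 CPM per kb) and the other 7 places were unchanged.

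**Figure D1:**
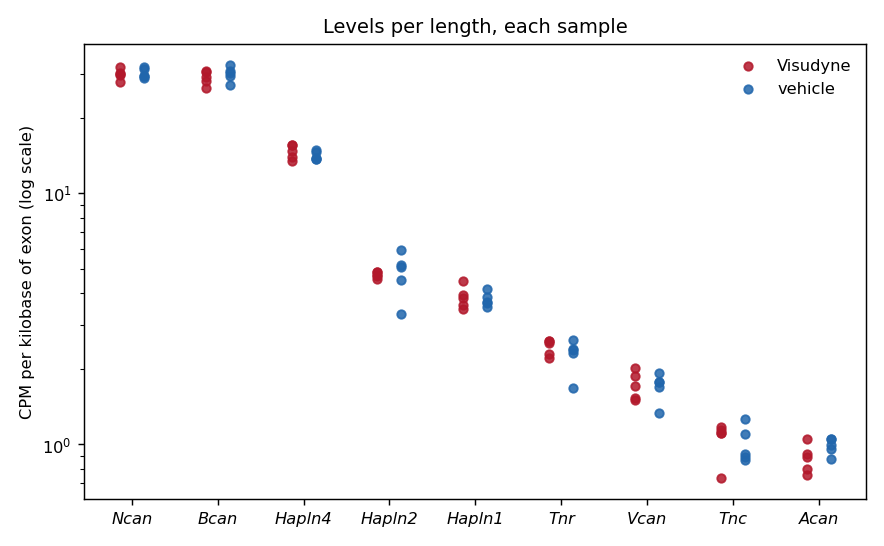
Level of each gene in CPM per kilobase of exon on a log axis, with 1 point per sample (Visudyne left, vehicle right). Ncan and Bcan lie near 30 CPM per kb and Tnc and Acan near 1, and the points of the groups overlap in every gene.

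Within families the mean shares of the groups differed by less than 1 SD. Of the summed lectican level, Ncan held 48.7 ± 1.26% in Visudyne and 48.0 ± 1.08% in vehicle samples, and Bcan 47.0 ± 1.40% and 47.7 ± 1.27% (SD, n = 5 each). Vcan held 2.82 ± 0.474% in Visudyne and 2.72 ± 0.447% in vehicle samples, and Acan 1.44 ± 0.145% and 1.58 ± 0.153%. Of the summed link protein level, Hapln4 held 63.0 ± 1.57% in Visudyne and 62.3 ± 2.78% in vehicle samples. Of the summed tenascin level, Tnr held 70.0 ± 3.48% in Visudyne and 69.2 ± 4.21% in vehicle samples. The groups overlapped in the share of every member.

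The comparison of Visudyne with vehicle samples asks whether loss of meningeal lymphatic drainage goes with altered expression in the hippocampus. None of the 9 genes passed edgeR's quasi-likelihood test, adjusted over 19093 genes. An adjusted p below 0.05 was reached by 0.0210% of all genes. Without adjustment, edgeR placed 0 of the 9 below 0.05, against 1.70% of all genes, of which 1.14% of all genes were higher with Visudyne. DESeq2 and limma voom called 0 of the 9 after adjustment. Log2 fold changes (Visudyne minus vehicle) were positive in 5 and negative in 4 members, against 51.1% positive over all genes, with a median of 0.02, beside a median of 0.0022 over all genes tested. No member's groups were free of overlap, against 0.319% of genes with every Visudyne sample above and 0.115% with every Visudyne sample below all vehicle samples. The 95% intervals of the 9 fold differences lay between 0.777 and 1.29. In whole tissue, fewer cells of a type and less RNA per cell cannot be told apart.

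**Figure D2:**
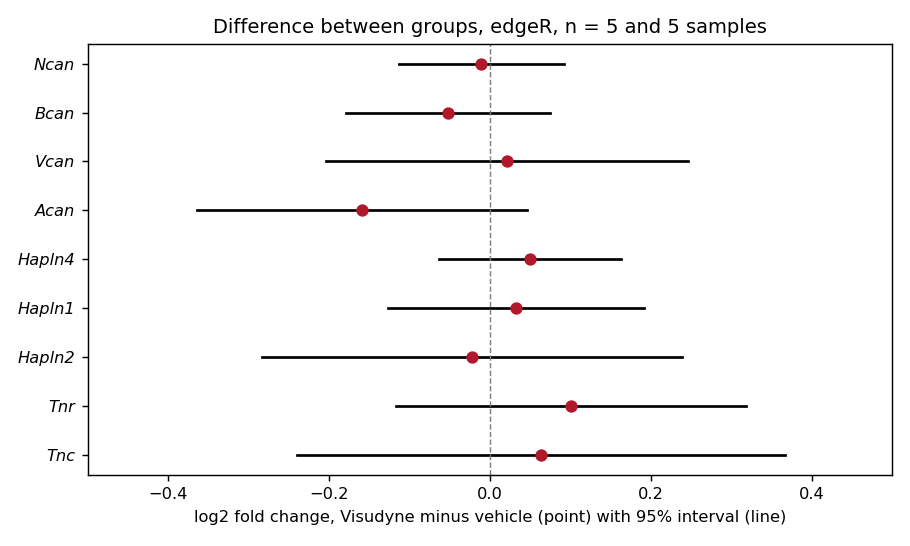
Log2 fold change of each gene (points, Visudyne minus vehicle) with its 95% interval from edgeR (lines), 5 samples per group. Every interval contains 0. The narrowest belongs to Ncan (-0.11 to 0.09) and the widest to Tnc (-0.24 to 0.37).

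Among the lecticans, Acan had the largest difference. Acan measured 7.84, 6.82, 6.67, 5.66 and 5.96 CPM in Visudyne samples 3, 6, 9, 12 and 15, against 6.55, 7.82, 7.87, 7.14 and 7.44 CPM in vehicle samples 1, 4, 7, 10 and 13. Visudyne 12 and 15 lay below all vehicle samples, while Visudyne 3 was among the highest of all. The log2 fold change was -0.16 (SE 0.09, 95% interval -0.36 to 0.05, edgeR adjusted p = 0.9999). Without Visudyne 12 it was -0.10, and without Visudyne 3 it was -0.23 (edgeR unadjusted p = 0.0238, adjusted p = 0.9998). Acan rested on 314 to 489 estimated counts per sample, the fewest of the lecticans.

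Ncan, a lectican of both nets and diffuse matrix, measured 229.0, 218, 215, 213 and 200.4 CPM in Visudyne samples 3, 6, 9, 12 and 15, against 229, 225, 207, 212 and 211 CPM in vehicle samples 1, 4, 7, 10 and 13. The highest sample of each group was almost the same, and the lowest of all was Visudyne 15. The log2 fold change was -0.01 (SE 0.05, interval -0.11 to 0.09, edgeR adjusted p = 0.9999). Ncan was also steady: its SD within groups was 0.066 on the log2 scale, and 16.0% of 608 genes of like abundance had a smaller one.

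Bcan, a short lectican that sits close to synapses, spanned 107 to 124 CPM in Visudyne and 109.6 to 132 CPM in vehicle samples. Its log2 fold change was -0.05 (SE 0.06, interval -0.18 to 0.07, edgeR adjusted p = 0.9999). It was -0.02 without vehicle 1 or Visudyne 9 and -0.08 without vehicle 10.

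Vcan, a large lectican found at nodes and in other matrix, measured 21.7, 22.1, 27.0, 24.7 and 29.0 CPM in Visudyne samples 3, 6, 9, 12 and 15. It measured 19.3, 24.4, 27.8, 25.7 and 25.6 CPM in vehicle samples 1, 4, 7, 10 and 13. The highest value was that of Visudyne 15 and the lowest that of vehicle 1. The log2 fold change was 0.02 (SE 0.10, interval -0.20 to 0.25, edgeR adjusted p = 0.9999). The SD of Vcan within groups was 0.190 on the log2 scale, and 90.4% of 2539 genes of like abundance had a smaller one.

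Of the link proteins, Hapln2, which oligodendrocytes make, spanned a narrower range in Visudyne than in vehicle samples around nearly the same mean. Hapln2 measured 11.2, 11.5, 10.8, 11.5 and 11.1 CPM in Visudyne samples 3, 6, 9, 12 and 15, against 12.01, 12.3, 10.7, 7.87 and 14.1 CPM in vehicle samples 1, 4, 7, 10 and 13. All Visudyne samples lay inside the vehicle range, whose ends were vehicle 10 and vehicle 13. The means were 11.2 ± 0.310 CPM and 11.4 ± 2.31 CPM (SD, n = 5 each), with a log2 fold change of -0.02 (SE 0.12, interval -0.28 to 0.24, edgeR adjusted p = 0.9999). Whether the spread differed was not tested. Summed CPM of 10 oligodendrocyte markers spanned 1913 to 2824 in Visudyne and 1928 to 2897 in vehicle samples. Vehicle 10, the lowest in Hapln2, had the lowest sum of the vehicle samples, but vehicle 13, the highest in Hapln2, had the next lowest (2302 CPM). Visudyne 15 had the lowest sum of all with 11.1 CPM of Hapln2. Over the 10 samples r of Hapln2 with these markers was 0.471 (permutation p = 0.172, adjusted p = 0.637; rho = 0.479, permutation p = 0.169, adjusted p = 0.577), and 0.421 without the 2 samples farthest from the Hapln2 median. Among them the myelin gene Mbp measured 487 ± 53.4 CPM in Visudyne and 486 ± 62.0 CPM in vehicle samples, and 0 of the 10 were called. Its part in the Hapln2 values was not tested.

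Hapln4 spanned 52.9 to 61.1 CPM in Visudyne and 53.6 to 58.6 CPM in vehicle samples, and 2 Visudyne samples lay above all vehicle samples. Its log2 fold change was 0.05 (SE 0.05, interval -0.06 to 0.16, edgeR adjusted p = 0.9999), and it was 0.03 without Visudyne 3 or Visudyne 9 and 0.07 without Visudyne 15. Hapln1 spanned 20.4 to 26.5 CPM in Visudyne and 20.8 to 24.5 CPM in vehicle samples. The end at 26.5 CPM was Visudyne 12, and the log2 fold change was 0.03 (SE 0.07, interval -0.13 to 0.19, edgeR adjusted p = 0.9999).

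Of the tenascins, Tnr, which oligodendrocyte lineage cells and some interneurons make, measured 33.2, 33.3, 29.6, 28.4 and 32.6 CPM in Visudyne samples 3, 6, 9, 12 and 15. It measured 30.5, 29.8, 21.7, 30.8 and 33.6 CPM in vehicle samples 1, 4, 7, 10 and 13. Apart from the low value of vehicle 7 the groups spanned nearly the same range. The log2 fold change was 0.10 (SE 0.10, interval -0.12 to 0.32, edgeR adjusted p = 0.9999) and 0.0094 without vehicle 7. Vehicle 7 was also the sample with most choroid plexus RNA: the summed CPM of 8 markers was 220.3 there and 29.3 to 44.8 in the other vehicle samples, and 27.3 to 53.7 in Visudyne samples. Ttr, the main choroid plexus transcript, measured 15.4 ± 10.1 CPM in Visudyne and 43.7 ± 75.9 CPM in vehicle samples, Kl 19.6 ± 1.20 and 23.0 ± 3.07 CPM, and 0 of the 8 were called. Over the 10 samples r of Tnr with the choroid plexus sum was -0.859 (permutation p = 0.0264, adjusted p = 0.282, rho = -0.455). It was -0.0922 without the 2 samples farthest from the Tnr median. Beyond this relation, the part of choroid plexus RNA in the Tnr value was not tested.

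Tnc, which astrocytes, neural stem cells and connective tissue cells make, measured 8.64, 9.09, 5.70, 8.64 and 8.90 CPM in Visudyne samples 3, 6, 9, 12 and 15. It measured 9.81, 7.13, 6.95, 8.56 and 6.76 CPM in vehicle samples 1, 4, 7, 10 and 13. Visudyne 9 was the lowest of all 10 samples and the other 4 Visudyne samples lay in the upper part of the vehicle range. The log2 fold change was 0.06 (SE 0.14, interval -0.24 to 0.37, edgeR adjusted p = 0.9999), and 0.17 without Visudyne 9 or 0.16 without vehicle 1.

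**Figure D3:**
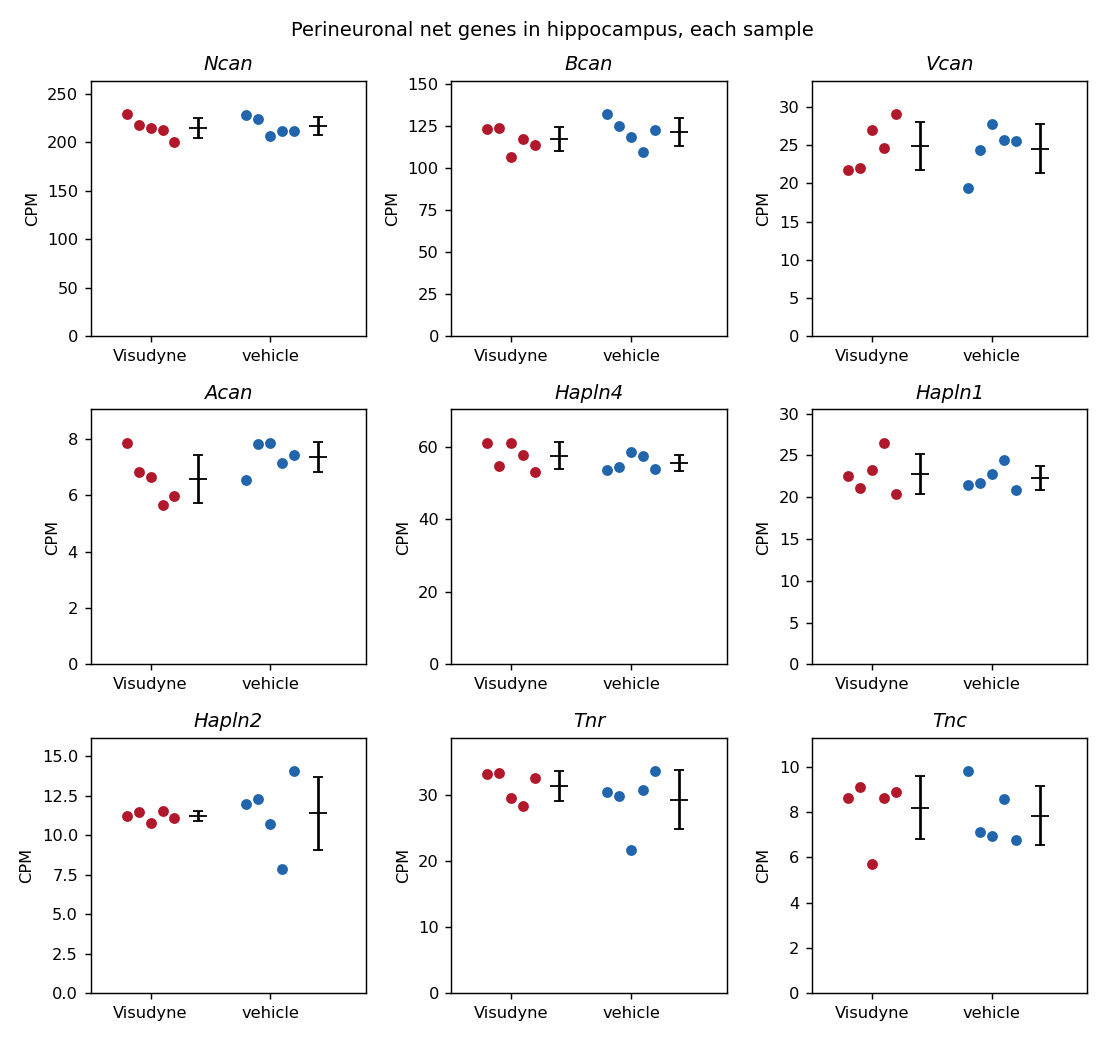
CPM of each gene in each sample, Visudyne on the left and vehicle on the right of each panel, with points in order of sample number and the mean ± SD beside them (n = 5 each). The groups overlap in all 9 panels, and Hapln2 spans 10.8 to 11.5 CPM in Visudyne against 7.87 to 14.1 CPM in vehicle samples.

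Ratios between members do not depend on the scaling of the libraries. The log2 ratio of Hapln4 to its partner Bcan was -1.03 ± 0.140 in Visudyne and -1.13 ± 0.149 in vehicle samples, with all 5 Visudyne samples above the vehicle median and overlapping ranges. That of Bcan to Ncan was -0.88 ± 0.0796 and -0.83 ± 0.0689, with 0 Visudyne samples above the vehicle median. That of Hapln1 to Acan was 1.79 ± 0.268 in Visudyne and 1.60 ± 0.140 in vehicle samples, and 2 Visudyne samples lay above the vehicle range. That of Tnr to Tnc was 1.96 ± 0.248 and 1.90 ± 0.290, and that of Hapln2 to Vcan -1.14 ± 0.206 and -1.12 ± 0.413 (SD, n = 5 each). These ratios were not tested.

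Across the 10 samples Ncan and Vcan moved in opposite directions. Samples with more Ncan had less Vcan (Pearson's r = -0.872, permutation p = 0.0011, adjusted p = 0.0396 over 36 pairs of members; Spearman's rho = -0.891, permutation p = 0.00114, adjusted p = 0.0410). Without vehicle 1 and Visudyne 3, the samples farthest from the median of Ncan, r was -0.768 (exact permutation p = 0.0300, unadjusted, n = 8). This p is no separate test, because the pair was picked as the strongest of 36 in these same samples. With values centred on group means r was -0.872. These permutations treat the 10 samples as exchangeable. Across all genes, deviations from group means in samples with neighbouring title numbers (1 and 3, 4 and 6, and so on) had r of 0.109 to 0.507 in the 5 pairs. All 5 of these r were positive. Of the Visudyne samples 2 deviated most like their neighbour, while Visudyne 6 and 9 were closest to vehicle 13 and Visudyne 12 to vehicle 1. With neighbouring numbers as a block, a fit added after seeing the data, edgeR gave smaller SEs. The SE of the log2 fold change fell from 0.103 to 0.0554 for Vcan and from 0.047 to 0.0297 for Ncan. Whether the samples are exchangeable was not tested. None of the other 35 pairs of members passed. The nearest was Bcan with Vcan (r = -0.754, permutation p = 0.0119, adjusted p = 0.214; rho = -0.794, permutation p = 0.00868, adjusted p = 0.156), where r was -0.880 without the 2 samples farthest from the Bcan median.

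Both genes also varied with the main axis of difference between the libraries. The first principal component of all genes, 41.4% of the variance, had vehicle 1 and Visudyne 15 at its ends, which also held the lowest and the highest Vcan value. Its correlation with Ncan was 0.586 and with Vcan -0.648 over the 10 samples. Hapln1 had 0.628 with this axis, 0.00605 with Ncan and 0.0768 with Vcan. The part of this axis in the relation of Ncan and Vcan was not tested. Without vehicle 1 and Visudyne 15 r of Ncan and Vcan was -0.778 (exact permutation p = 0.0255, unadjusted, n = 8). This p too belongs to a pair picked in these same samples. The coding transcript of Ncan is 7.20 kb with 55.1% GC, and that of Vcan 12.4 kb with 43.7% GC. Across 15541 coding genes, the correlation of a gene with Vcan over samples had a Spearman's rho of -0.279 with its GC content and 0.246 with its length, and that with Ncan 0.210 and -0.179. Genes of a library are not independent, and the part of GC content or length in the relation was not tested.

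**Figure D4:**
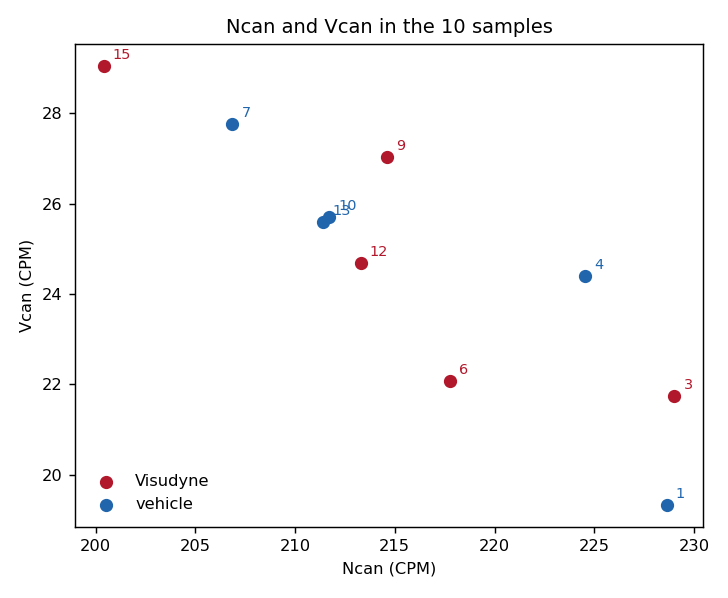
Vcan against Ncan in CPM, 1 point per sample labelled with its number, for Visudyne and vehicle. The points run from Visudyne 15 (200.4 and 29.0 CPM) to vehicle 1 (229 and 19.3 CPM), and both groups lie along the same line. Neither axis starts at 0.

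No link protein gene followed its neighbouring lectican past the threshold. Hapln2 and Bcan had r = 0.623 (permutation p = 0.0501, adjusted p = 0.431; rho = 0.685, permutation p = 0.0351, adjusted p = 0.283) and 0.376 without the 2 samples farthest from the Bcan median. Hapln4 and Ncan, the closest neighbours, had r = 0.144 (permutation p = 0.688, adjusted p = 0.838; rho = 0.212, permutation p = 0.562, adjusted p = 0.778), and 0.0789 without the 2 samples farthest from the Ncan median. Hapln1 and Vcan had r = 0.0768 (permutation p = 0.836, adjusted p = 0.912; rho = 0.0545, permutation p = 0.891, adjusted p = 0.944), and -0.0789 without the 2 samples farthest from the Vcan median. Hapln1 and Hapln4, on separate chromosomes, had r = 0.608 (permutation p = 0.0598, adjusted p = 0.431; rho = 0.745, permutation p = 0.0171, adjusted p = 0.206) and 0.908 without the 2 samples farthest from the Hapln1 median.

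The genes whose values, centred on group means, ran closest to each member over the 10 samples were drawn from 12908 genes, so that high correlations arise in any case. For Bcan they were Padi2 (r = 0.970) and Zfp217 (0.937), and for Ncan Slc27a4 (0.971) and Pacsin1 (0.970). For Vcan they were Nipbl (0.977) and Dync2h1 (0.965), and for Acan Zfp612 (0.921) and Mlip (0.904). For Hapln2 they were Plxnb3 (0.919) and Daam2 (0.911), for Hapln1 Hmgn3 (0.975) and Mtrex (0.972), and for Hapln4 Bdnf (0.940) and Kcnd2 (0.920). For Tnr they were Zfyve19 (0.961) and Eps8l1 (0.942), and for Tnc Egfl6 (0.959) and Lrsam1 (0.941).

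Genes that build, cut or bind the net did not pass in the edgeR test over all genes. Beside the counts of signs below, 51.1% of fold changes over all genes were positive. Of 11 genes of hyaluronan synthesis, breakdown and binding, 10 were tested and 0 were called, with 5 positive and 5 negative fold changes (median log2 fold change 0.03). Hyal2, a hyaluronidase, measured 5.43 ± 0.662 CPM in Visudyne and 6.03 ± 0.455 CPM in vehicle samples, and Has1, a hyaluronan synthase, 1.27 ± 0.477 and 0.987 ± 0.187 CPM (SD, n = 5 each).

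Of 21 enzymes of chondroitin sulfate synthesis and sulfation, the chains carried by lecticans, 20 were tested and 0 called, with 5 positive and 15 negative (median -0.02). Chst12, a sulfotransferase, measured 10.3 ± 1.21 CPM in Visudyne and 11.2 ± 0.748 CPM in vehicle samples. Xylt1, which starts the chain, measured 53.9 ± 1.41 CPM in Visudyne and 51.6 ± 3.49 CPM in vehicle samples.

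Of 11 other brain chondroitin sulfate proteoglycans, all were tested and 0 called, with 7 positive and 4 negative (median 0.02). Bgn (biglycan, also made by fibroblasts) measured 8.99 ± 1.67 CPM in Visudyne and 6.29 ± 1.22 CPM in vehicle samples (log2 fold change 0.52, edgeR unadjusted p = 0.00508, adjusted p = 0.9999). Cspg4 (NG2, of oligodendrocyte precursors and pericytes) measured 21.4 ± 1.89 CPM in Visudyne and 19.5 ± 0.922 CPM in vehicle samples (log2 fold change 0.14, edgeR adjusted p = 0.9999).

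Of 14 proteases that cut lecticans and their inhibitors, 13 were tested and 0 called, with 10 positive and 3 negative (median 0.05). An edgeR unadjusted p under 0.05 was reached by 3 of the 13, against 1.70% of all genes. They were Adamts1, Timp1 and Mmp2 (log2 fold change 0.41), the last named after its value was seen. Adamts1, a lectican-cutting protease, measured 18.7 ± 0.851 CPM in Visudyne and 20.6 ± 0.635 CPM in vehicle samples, with 4 of 5 Visudyne samples below all vehicle samples (log2 fold change -0.14, edgeR unadjusted p = 0.0123, adjusted p = 0.9999). The protease inhibitor Timp1 measured 0.522 ± 0.122 CPM in Visudyne and 0.289 ± 0.133 CPM in vehicle samples (0.85, SE 0.33, edgeR unadjusted p = 0.0225, adjusted p = 0.9999).

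Of 17 receptors and ligands of net components, all were tested and 0 called, with 12 positive and 5 negative (median 0.03). Egfr, the epidermal growth factor receptor, measured 26.0 ± 0.963 CPM in Visudyne and 23.3 ± 0.782 CPM in vehicle samples (log2 fold change 0.16, SE 0.04, edgeR unadjusted p = 0.00354, adjusted p = 0.9999). The lowest Visudyne sample of Egfr exceeded the highest vehicle sample, as in 0.319% of all genes, and Egfr was named for its small p among the 17. Ptprf, a receptor phosphatase that binds chondroitin sulfate, measured 55.7 ± 4.12 CPM in Visudyne and 51.9 ± 3.26 CPM in vehicle samples.

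Markers of the cells that make or carry nets were present, and none passed edgeR's test. Of 10 parvalbumin interneuron genes 0 were called (median log2 fold change 0.02), with a summed level of 668 to 842 CPM in Visudyne and 698 to 773 CPM in vehicle samples. Among its most abundant, Gad1, an enzyme of GABA synthesis, measured 232 ± 28.8 CPM in Visudyne and 235 ± 13.2 CPM in vehicle samples. The receptor gene Erbb4 measured 129.6 ± 11.1 CPM in Visudyne and 128 ± 10.1 CPM in vehicle samples. Pvalb itself, named outside the rule for genes, measured far less, 18.3 ± 2.89 CPM in Visudyne and 18.0 ± 1.37 CPM in vehicle samples. The sum therefore rests mainly on other genes of the list. Of the 8 CA2 markers 7 were tested and 0 called (median -0.05), with Rgs14 at 67.9 ± 5.83 CPM in Visudyne and 70.3 ± 3.78 CPM in vehicle samples, and Pcp4 at 59.0 ± 10.3 and 61.6 ± 6.81 CPM. Of the 9 oligodendrocyte precursor markers 8 were tested and 0 called (median -0.03), with Pdgfra at 54.8 ± 3.08 CPM in Visudyne and 55.3 ± 4.18 CPM in vehicle samples and Olig1 at 46.7 ± 6.19 and 48.7 ± 6.29 CPM. Of the 10 astrocyte markers 0 were called and 9 were positive (median 0.06), against 51.1% positive over all genes. Slc1a2 measured 3275 ± 203 CPM in Visudyne and 3266 ± 109 CPM in vehicle samples, and Aldoc 472 ± 33.0 and 460.2 ± 43.8 CPM.

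Connective tissue markers had higher summed levels with Visudyne. Of 10 markers of meningeal and perivascular fibroblasts, which can also make Vcan and Tnc, 10 were positive, against 51.1% of all genes (median log2 fold change 0.34). Of these markers 1 (Col1a1) was called, against 0.0210% of all genes called. An edgeR unadjusted p under 0.05 was reached by 5 of the 10, against 1.70% of all genes. Like the other gene lists, these 10 were chosen with earlier results of these data known. Their counts beside the shares of all genes are therefore a description and no test. Col1a1, a fibrillar collagen chain, measured 19.0 ± 2.47 CPM in Visudyne and 8.42 ± 2.30 CPM in vehicle samples (log2 fold change 1.18, edgeR adjusted p = 0.0485), and no gene at all was called higher without Visudyne 3, Visudyne 6 or vehicle 7. Their summed level was 145.5 to 184 CPM in Visudyne and 70.7 to 142 CPM in vehicle samples, without overlap, while the Vcan and Tnc values of the groups overlapped. Over the 10 samples r with this sum was -0.339 for Vcan (permutation p = 0.338, adjusted p = 0.826, rho = -0.358). For Tnc it was 0.477 (permutation p = 0.16, adjusted p = 0.627, rho = 0.527). Beyond these relations, the part of fibroblast RNA in Vcan and Tnc was not tested. Dcn measured 43.0 ± 11.3 CPM in Visudyne and 38.1 ± 16.8 CPM in vehicle samples, and Col1a2 31.9 ± 2.61 and 18.6 ± 6.50 CPM.

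Markers of neighbouring tissue differed between single samples. Summed thalamus markers reached 149 CPM in Visudyne 12, against 74.6 to 87.0 CPM in the other Visudyne samples and 74.9 to 87.8 CPM in vehicle samples. Visudyne 12 also had the lowest Acan and the highest Hapln1 value. Over the 10 samples r with the thalamus marker sum was -0.673 for Acan (permutation p = 0.0185, adjusted p = 0.282, rho = -0.442). For Hapln1 it was 0.639 (permutation p = 0.0727, adjusted p = 0.468, rho = 0.309). Without the 2 samples farthest from the median of each gene r was -0.0817 for Acan and -0.395 for Hapln1. The part of neighbouring tissue in these values was not tested. The most abundant thalamus markers were Plekhg1 (21.7 ± 1.92 CPM in Visudyne and 22.7 ± 2.25 CPM in vehicle) and Calb2 (23.3 ± 8.45 and 20.8 ± 4.76 CPM). Like Calb2, Zic1 (19.1 ± 17.0 and 11.5 ± 3.82 CPM) and Prkcd (16.7 ± 7.82 and 15.3 ± 0.999 CPM) varied widely in Visudyne samples. Plekhg1, Tcf7l2 (2.57 ± 0.250 CPM in Visudyne), Lef1 (4.63 ± 0.952) and Rgs16 (4.34 ± 0.556) varied less, so the sum did not follow the whole list. These genes beyond the first 2 were named after their values were seen. Neocortex markers summed to 182 to 243 CPM in Visudyne and 159 to 248 CPM in vehicle samples, with Tshz2 at 66.5 ± 7.55 CPM in Visudyne and 65.1 ± 14.8 CPM in vehicle samples and Rorb at 38.9 ± 3.50 and 38.6 ± 2.50 CPM. Dentate granule cell markers summed to 424 to 510.2 CPM in Visudyne and 445 to 531 CPM in vehicle samples, with Prox1 at 101 ± 10.7 and 107.5 ± 7.84 CPM and Calb1 at 97.1 ± 8.39 and 99.7 ± 10.04 CPM. Fold changes of all 7 dentate markers were negative (median -0.17), while 51.1% of all genes were positive. None of the thalamus, neocortex or dentate markers was called by edgeR. An unadjusted p under 0.05 was reached by 3 of the 7 dentate, 1 of the 7 thalamus and 0 of the 7 neocortex markers, against 1.70% of all genes. The 3 dentate genes, named after their values were seen, were Plk5 (log2 fold change -0.28), Lct (-0.18) and Stxbp6 (-0.17). The thalamus gene was Tcf7l2, at 2.57 ± 0.250 CPM in Visudyne and 2.10 ± 0.208 CPM in vehicle samples (0.29, edgeR unadjusted p = 0.0265, adjusted p = 0.9999). For Tcf7l2, 4 Visudyne samples lay above all vehicle samples. Of 90 relations between a member and a marker list, none passed after adjustment. The strongest by the p of r was Ncan with oligodendrocyte precursor markers (r = 0.829, permutation p = 0.00302, adjusted p = 0.195; rho = 0.770, permutation p = 0.0127, adjusted p = 0.263), where r was 0.640 without the 2 samples farthest from the Ncan median. The next was Hapln1 with parvalbumin interneuron markers (r = 0.811, permutation p = 0.00452, adjusted p = 0.195; rho = 0.697, permutation p = 0.0311, adjusted p = 0.400), where r was 0.599 without 2 samples. Ranked by the p of rho, Ncan with neocortex markers came first (rho = 0.83, permutation p = 0.00464, adjusted p = 0.263). Bcan (rho = 0.806, permutation p = 0.00701) and Vcan (rho = -0.794, permutation p = 0.00884) with these markers followed, at the same adjusted p. Without the 2 samples farthest from each gene's median, r was 0.703 for Ncan, 0.747 for Bcan and -0.524 for Vcan. The part of neocortex in these values was not tested.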

How the data were processed

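Total RNA of mouse hippocampus was made into stranded total RNA libraries, as the labels' protocols state. Values were deposited as estimated counts, 1 row for each Ensembl gene; the submitters' processing notes name FastQC, Salmon and mm10, without versions. The values are whole, so that rounding changed nothing. Depth was 51165271 to 68895223 counts per sample (exact two-sided permutation p = 0.516 between groups, n = 5 each). No 2 of the libraries agreed within sampling noise (45 pairs, smallest chi-square over its degrees of freedom 9.4).

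Groups follow the sample titles. Symbols, positions and exon lengths came from GENCODE M21, which matched 28564 identifiers. Groups were compared by the quasi-likelihood test of edgeR 4.0.16 under R 4.3.3, with TMM scaling, the default filter on low counts and Benjamini-Hochberg adjustment over 19093 genes. SEs were derived from F. Log2 CPM for correlations used a prior count of 2, and correlation p-values 100000 two-sided permutations.

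Alternatives were other scalings and filters, leaving out mitochondrial genes, limma 3.58.1 with voom, DESeq2 1.42.0, the sample number as covariate and leaving out each sample. A fit without vehicle 1 and Visudyne 15 (the extremes of the first principal component), a block of neighbouring title numbers and the marker relations, were added after seeing the data. The procedure was tested on simulated data. Members and gene lists were chosen with earlier results of these data known. Named genes were all members, the 2 of smallest p per pathway list, the 2 most abundant per marker list and the 2 of closest pattern per member; Col1a1 was named after its value was seen. A gene that this rule names is not reported here.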

Additional observations from a re-analysis of the deposited data

Results flagged for a closer look

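In Visudyne samples, Tnc in sample 9 (5.70 CPM) stood farther from the others, at 8.64 to 9.09 CPM, than a gap criterion for 5 values allows. The same criterion marked the summed thalamus markers of Visudyne 12 (148.7 CPM) and the summed choroid plexus markers of vehicle 7 (220.3 CPM). These were 3 of 50 groups of 5 values examined, and chance marks about 1 in 20. In Visudyne 9 the thalamus markers summed to 75.6 CPM and the choroid plexus markers to 28.2 CPM. Causes were not tested.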

How the results depend on the processing

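The count of 0 called members was the same in all 20 alternatives, and of 180 log2 fold changes of members under them 165 kept their sign. The other 15 changed sign. Over single omissions the log2 fold change of Ncan ranged from -0.0352 to 0.0102, of Vcan from -0.0545 to 0.0684, of Hapln1 from -0.0224 to 0.0713 and of Hapln2 from -0.127 to 0.0731. Acan had an unadjusted p under 0.05 in 1 of the 20, without Visudyne 3. Ncan was 0.00095 with at least 1 CPM in 5 samples, and Ncan and Vcan were 0.0129 and -0.0429 with the sample number as covariate. Without vehicle 1 and Visudyne 15, the extremes of the first principal component, Ncan was 0.0360, Vcan -0.113 and Hapln2 0.0012. Over all genes 4 were higher and 0 lower with Visudyne by edgeR. The higher count was 2 with upper-quartile scaling, 2 without mitochondrial genes, 16 with DESeq2 and 19 with the sample number as covariate. It was 0 to 4 over single omissions, being 0 without Visudyne 3, Visudyne 6 or vehicle 7 and 1 without Visudyne 9, 12 or 15 or vehicle 10 or 13. The lower count was 2 with DESeq2 and 0 to 1 over single omissions. Both counts were 1 without vehicle 1 and Visudyne 15 together. With the longest coding transcript as length 2 members changed place in the order of levels. The cause was not tested. The groups share no replicate number, so the labels pair no samples. An exploratory fit took neighbouring title numbers as a replicate block, a pairing that the labels do not state and that was chosen after seeing the data. It called 9 genes higher and 1 lower and no member. Of the 5 Visudyne samples, 2 deviated most like their neighbouring vehicle sample. Acan and Tnc had the fewest counts, 314 and 338 in their lowest samples.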
